A study of Mus musculus with 24 samples.

Results

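Kinesins are microtubule motors, and the genes described here are the 42 kinesin genes among the 32310 entries of an expression table from the developing mouse cortex. They were chosen by name alone, as entries called Kif followed by a number and optional letter, or Klc followed by a digit; the Klc genes encode kinesin light chains. RNA was sequenced from FACS-purified cortical neurons of outbred CD1 mice, with no treatment or altered allele named in the labels. The groups were callosal neurons, whose axons cross to the other hemisphere, subcerebral neurons, whose axons descend as far as the spinal cord, and corticothalamic neurons, whose axons end in the thalamus. Each was taken at E15, E16 and E18 (embryonic days) and at P1 (the first postnatal day). The labels describe 24 libraries in 12 groups of 2, but the table gives 1 value per group, in FPKM, a read density corrected for transcript length and library size, so no value has an SD or n. The sources used here name neither the sort markers nor the animals behind each library.

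Most kinesins use ATP to walk along microtubules, and in axons the majority of cargo moving toward the nerve terminal is carried by them. Another set of kinesins builds the spindle, moves chromosomes and completes cytokinesis in dividing cells, which postmitotic neurons no longer need in that role. Further members shorten or stabilise microtubule ends, and some serve the cilium. The 42 genes were therefore sorted by known role into 17 cargo transport genes, 12 mitotic genes, 5 regulators of microtubules or atypical members, 7 genes of cilia or other roles, and Kif4b, which was given no class.

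Tests were run with limma on log2(FPKM + 1) over the 13946 genes that reached 1 FPKM in at least 2 columns, with Benjamini-Hochberg adjustment over all of them and a threshold of 0.05. A subtype difference is the mean over 4 stages and a stage difference the mean over 3 subtypes, each ± the standard error (SE) of the fit. The p-values therefore reflect the evenness of a difference across stages or subtypes, and say nothing of the spread between libraries. A stage cannot be told apart from any collection or sequencing shared by the groups of that stage, and in sorted bulk RNA fewer cells of a type and less RNA per cell cannot be told apart. Differences on this scale understate changes of genes near or below 1 FPKM, and sequencing depth is unknown.

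The subtype labels were checked against marker genes. All 6 callosal markers, 5 of 6 corticothalamic markers and 4 of 6 subcerebral markers were highest in their own subtype at all 4 stages. The exceptions were Crym and Pcp4 for subcerebral neurons (2 stages each) and Sox5 for corticothalamic neurons (3 stages). Some callosal columns stood apart in markers of other cells. The summed level of 11 microglial genes was 5.71, 48.3, 24.2 and 23.8 FPKM from E15 to P1 in callosal neurons. It was 4.23 to 7.49 FPKM in subcerebral and 5.80 to 9.07 FPKM in corticothalamic neurons, where Aif1 made up most of it. At E15, Aif1 was 1.88, 3.81 and 5.41 FPKM in callosal, subcerebral and corticothalamic neurons. Every other microglial gene was highest in callosal neurons at E15, such as Csf1r at 0.437 FPKM against 0.0765 and 0.0716. The summed level of 10 interneuron genes was 78.2 FPKM in E15 callosal neurons and between 3.12 and 32.7 in the other columns. Column sums ran from 355965 to 473871 FPKM.

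Of the 42 kinesin genes, 30 entered the test: all 17 transport genes, all 5 regulators, 4 of 7 cilia genes and 4 of 12 mitotic genes. The other 12 were low in every group. Kif2b, Kif12 and Kif4b were listed at 0 throughout; Kif11, Kif14, Kif15, Kif18b, Kif20a, Kif2c, Kif6 and Kif19a stayed below 1 FPKM; Kif23 reached 1.04 FPKM in 1 column. The summed level of all kinesin genes was between 1200 and 1570 FPKM per group, or 0.304% to 0.380% of the column sum. Transport genes made up most of it, with sums of 899.9 to 1324.9 FPKM, against 216.2 to 458.9 FPKM for regulators, 6.68 to 15.8 FPKM for cilia genes and 3.19 to 10.7 FPKM for mitotic genes.

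**Figure D1:**
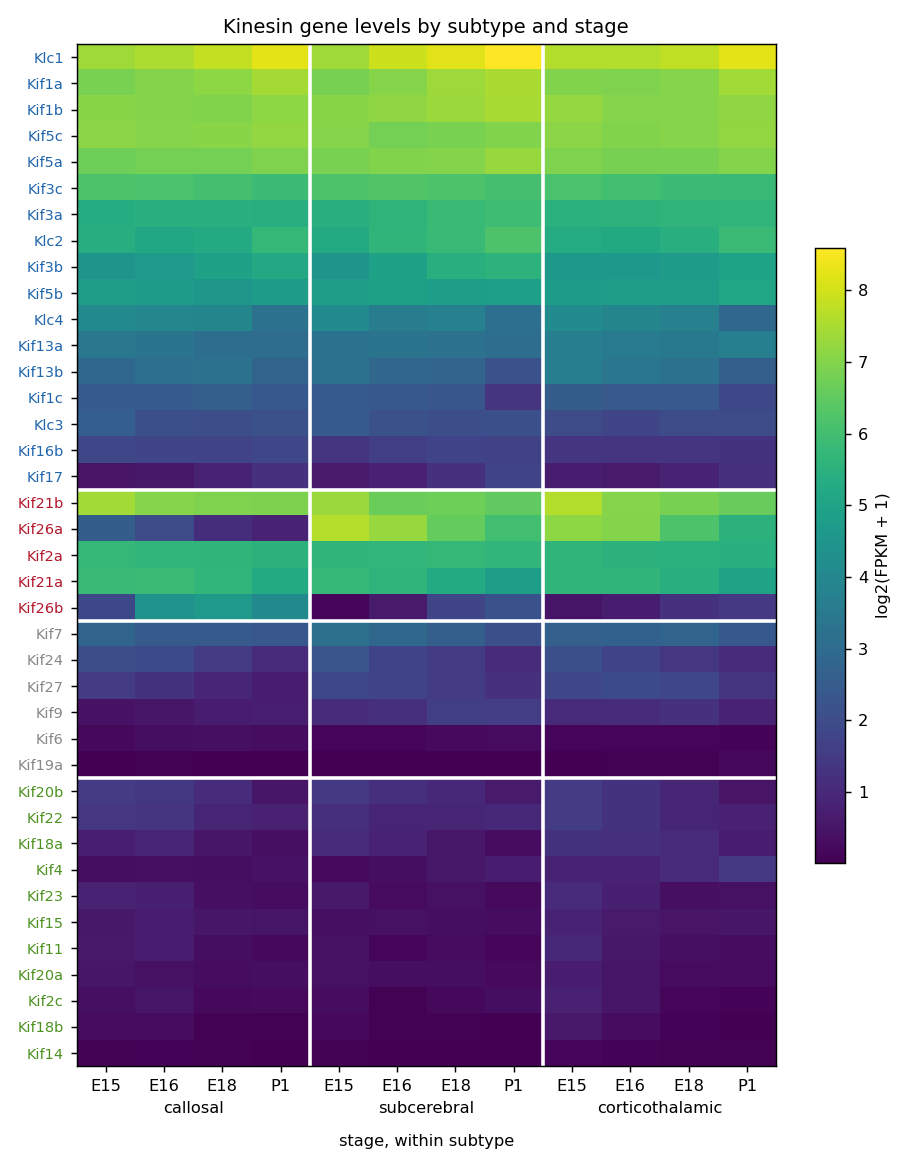
Heat map of log2(FPKM + 1), dark for low and yellow for high, with 1 row per kinesin gene above 0 and 1 column per group; white lines part the roles (transport, regulators and atypical, cilia and other, mitotic, from the top, with gene names coloured by role) and the subtypes. Transport kinesins such as Klc1 were above 100 FPKM in every group while all mitotic kinesins lay below 2 FPKM, and Kif26a and Kif26b differ most between subtypes.

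The stage comparison called 22 of the 30 tested kinesins, 9 higher and 13 lower at P1 than at E15. The background was high: 67.4% of all tested genes were called, 33.8% higher and 33.6% lower. By role, 7 of 17 transport genes were higher and 4 lower, 1 of 5 regulators was higher and 3 lower, none of 4 cilia genes was higher and 3 were lower, and 1 of 4 tested mitotic genes was higher and 3 were lower. The 4 mitotic genes passed the filter only through groups where they were high, so the direction of their count is shaped by it. Without a subtype term the stage calls of Kif26a, Kif26b, Kif27, Kif3a, Kif3c, Kif4 and Kif5a were lost, with limma adjusted p-values from 0.0583 to 0.55. At least 2-fold differences were called for 4 kinesins, Kif26a, Kif26b, Kif24 and Klc4, and for 16.8% of all tested genes. The median difference was 0.10 for transport genes, -0.73 for regulators and -0.63 for cilia genes.

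**Figure D2:**
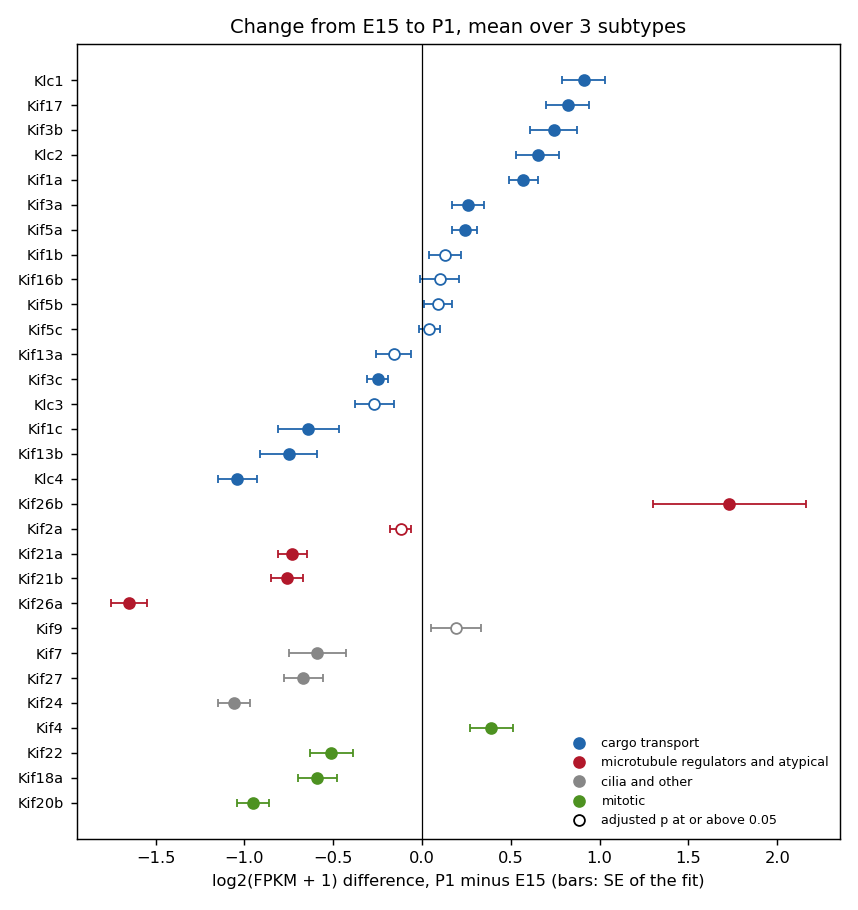
Difference in log2(FPKM + 1) between P1 and E15 for the 30 tested kinesin genes, by role, with the SE of the limma fit and filled points for adjusted p under 0.05. Klc1, Kif17, Kif3b, Klc2 and Kif1a lie to the right of 0, and Kif26a, Kif24, Klc4 and Kif20b lie farthest to the left.

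Fewer kinesins separated the subtypes. Callosal against subcerebral neurons called 11 of 30 kinesins, 4 higher and 7 lower in callosal neurons, where 29.3% of all tested genes were called (14.1% higher and 15.2% lower). Callosal against corticothalamic neurons called 9, 3 higher and 6 lower in callosal neurons, against a background of 31.3% (15.3% higher and 16% lower). These comparisons share the callosal values. Subcerebral against corticothalamic neurons also called 9, 4 higher and 5 lower in subcerebral neurons, against 27.5% (14.7% higher and 12.8% lower). Shares of 36.7% in the first and 30% in each of the others were near the background. Differences of at least 2-fold were called for Kif26a and Kif26b alone in both callosal comparisons (4.29% and 6.15% of all tested genes) and for no kinesin in the third (3.60%). Leaving out 1 stage at a time left 3 to 16, 4 to 9 and 0 to 16 kinesins called in these comparisons. The calls that held whichever stage was left out were those of Kif26a and Kif26b in both callosal comparisons, of Kif9 against subcerebral neurons, and of Kif16b and Kif27 against corticothalamic neurons.

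The Kif26 pair had the largest subtype differences among the kinesins. Kif26a and Kif26b encode atypical kinesins that bind microtubules without the usual motor activity; Kif26a is known for restraining a growth factor signal in gut neurons and Kif26b for its part in kidney development. At E15, Kif26a was 4.85 FPKM in callosal, 199.2 in subcerebral and 140.8 in corticothalamic neurons. At E16 the values were 2.91, 154.7 and 125.9 FPKM, at E18 1.20, 93.2 and 73.1 FPKM, and at P1 0.805, 63.3 and 45.2 FPKM, in the same order. Every callosal value lay far below every value of the other subtypes. Subcerebral neurons had 41.1, 53.1, 77.8 and 78.7 times the callosal FPKM from E15 to P1, and corticothalamic neurons 29.1, 43.3, 61.0 and 56.1 times. The fitted difference was -5.25 ± 0.08 (limma adjusted p = 1.26e-08) for callosal against subcerebral and -4.84 ± 0.08 (limma adjusted p = 2.5e-08) for callosal against corticothalamic neurons. Both calls were kept whichever stage was left out and under all 14 alternatives tried.

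Within this pattern Kif26a fell with age in all 3 subtypes. The E15 value was 6.02 times the P1 value in callosal, 3.15 times in subcerebral and 3.12 times in corticothalamic neurons, and the fitted difference was -1.65 ± 0.10 (limma adjusted p = 5.54e-06, or 0.55 without a subtype term). Kif26a was also higher in subcerebral than in corticothalamic neurons at each stage, by 0.40 ± 0.08 (limma adjusted p = 0.0123). That smaller difference lost its call without E16, E18 or P1, with adjusted p-values of 0.0722, 0.0786 and 0.061.

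Kif26b had the opposite distribution. It was 2.65 FPKM in callosal, 0.109 in subcerebral and 0.430 in corticothalamic neurons at E15, and 20.5, 0.570 and 0.571 FPKM at E16. At E18 it was 23.4, 2.52 and 1.38 FPKM, and at P1 16, 3.53 and 1.73 FPKM. Callosal neurons were highest at every stage, with 24.4, 35.9, 9.27 and 4.53 times the subcerebral FPKM from E15 to P1. The E15 callosal value overlapped the later subcerebral values, whereas callosal and corticothalamic ranges did not overlap. The fitted difference was 2.55 ± 0.37 (limma adjusted p = 0.00248) for callosal against subcerebral and 2.78 ± 0.37 (limma adjusted p = 0.0011) for callosal against corticothalamic neurons, and both calls were kept under all 14 alternatives. Kif26b was higher at P1 than at E15 by 1.73 ± 0.43 (limma adjusted p = 0.00697), which lost its call without the subcerebral values (adjusted p = 0.0706) or without a subtype term (adjusted p = 0.26).

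Kif26a made up 64.6% of the summed FPKM of the pair in E15 callosal neurons and 12.5%, 4.87% and 4.79% at the later stages. In subcerebral neurons its share stayed between 94.7% and 99.9%, and in corticothalamic neurons between 96.3% and 99.7%. Microglial markers moved alongside Kif26b in the callosal columns. Of 10 tested microglial genes, callosal neurons had 9 higher and none lower against subcerebral neurons. Against corticothalamic neurons they had 9 higher and 1 lower. Callosal neurons had 14.1% and 15.3% of all tested genes higher in these comparisons, in the same order. Aif1 apart, the tested microglial genes reached 1 FPKM in callosal neurons only, so the filter shaped the direction of their counts. C1qa and C1qc were listed at 0 in P1 subcerebral neurons, C1qb in E16 subcerebral, Tyrobp in E15 corticothalamic, and Trem2 in E15 and E18 subcerebral neurons. Their summed level peaked at E16 whereas Kif26b peaked at E18, and the Kif26b calls were kept without the E16 callosal value; the part of microglial RNA in the Kif26b level was not tested.

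**Figure D3:**
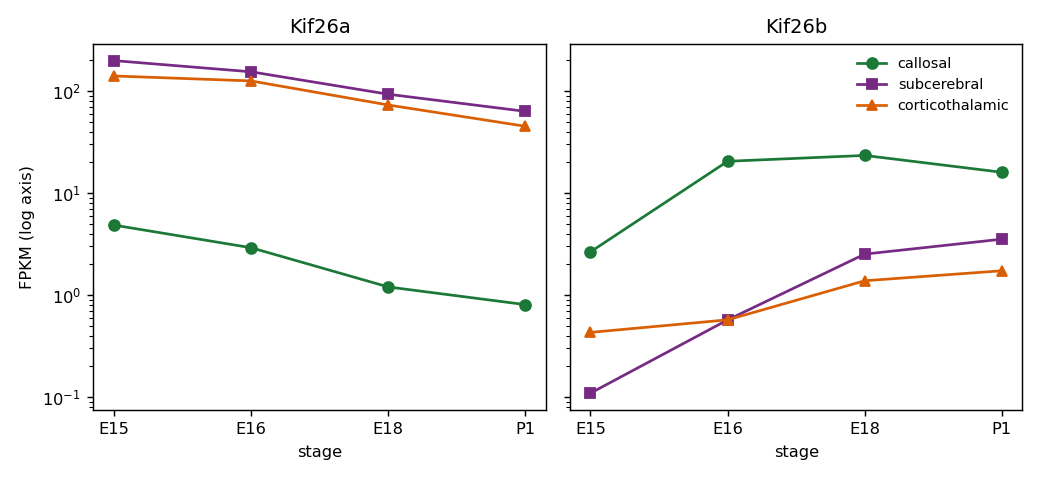
Kif26a (left) and Kif26b (right) in FPKM on a log axis at the 4 stages, 1 line per subtype and 1 value per group. Kif26a is lowest in callosal neurons at every stage, from 4.85 to 0.805 FPKM, while Kif26b is highest there, reaching 23.4 FPKM at E18.

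The 5 genes whose log2(FPKM + 1) over the 12 groups was most like that of Kif26a were Fsip1 (Pearson r = 0.990), Bcl11b (0.976), Xpr1 (0.976), Nab1 (0.975) and Islr2 (0.973). The 12 points share subtype and stage, so these values are a description. Bcl11b, a zinc finger factor of subcerebral neurons and itself a marker used above, was 168.1, 124.0, 109.5 and 103.7 FPKM in subcerebral neurons from E15 to P1. In corticothalamic neurons it was 97.1, 68.0, 36.7 and 32.1 FPKM, and in callosal neurons 6.94, 1.02, 1.00 and 1.16 FPKM. Kif26a and Bcl11b thus had the same order of subtypes at each stage. Bcl11b alone of the 5 genes had it. Corticothalamic values lay above subcerebral values at every stage for Xpr1 and Islr2, and at E15 for Fsip1 and Nab1.

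Promoter windows of the Kif26 pair are shown because their levels run in opposite directions across subtypes. Each stretch runs 5′ to 3′ on the gene's strand from 60 bases before to 25 bases at and after the annotated start, in RefSeq GRCm38.p6; capitals mark TTTGAA or CCAAT in either orientation, motifs described with the mitotic genes below. Kif26a lies at chr12:112146148-112146232 (plus strand) and Kif26b at chr1:178529065-178529149 (plus strand).
Kif26a: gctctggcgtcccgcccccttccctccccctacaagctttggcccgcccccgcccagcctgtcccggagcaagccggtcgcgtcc
Kif26b: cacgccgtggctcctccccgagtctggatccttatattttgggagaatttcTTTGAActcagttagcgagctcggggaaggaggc
The Kif26a stretch held neither motif and the Kif26b stretch held TTTGAA. A match describes the letters and is not evidence of a bound site.

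The other regulators were abundant, and Kif21a and Kif21b fell with age. Kif21b, a motor that also limits microtubule growth, was 167.0, 158.1 and 193.2 FPKM in callosal, subcerebral and corticothalamic neurons at E15. It was 131.7, 101.4 and 130.6 FPKM at E16, 120.3, 102.1 and 112.0 FPKM at E18, and 117.5, 90.4 and 97.0 FPKM at P1. Levels at P1 were below those at E15 in every subtype, by 0.76 on the log2 scale (fitted difference -0.76 ± 0.09, limma adjusted p = 0.000142). Its paralogue Kif21a, mutated in a human eye movement disorder, was 55.1, 53.0 and 48.7 FPKM at E15 and 37.6, 26.9 and 29.8 FPKM at P1 (-0.73 ± 0.08, limma adjusted p = 8.54e-05). Both stage calls were kept whichever subtype was left out. In callosal neurons Kif21a was slightly above its level in subcerebral (0.30 ± 0.07, limma adjusted p = 0.0143) and corticothalamic neurons (0.24 ± 0.07, limma adjusted p = 0.0279), and Kif21b exceeded its subcerebral level in callosal neurons (0.27 ± 0.08, limma adjusted p = 0.0372). These 3 subtype calls were lost without E16, E18 or P1, with adjusted p-values between 0.0777 and 0.192.

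Kif2a, a kinesin-13 that removes tubulin from microtubule ends and trims axon branches, showed the least movement among the regulators. It was 52.2, 48.4 and 48.4 FPKM at E15 in callosal, subcerebral and corticothalamic neurons, and 49.6, 51.3 and 45.3 FPKM at E16. At E18 it was 48.3, 51.5 and 44.0 FPKM, and at P1 45.1, 50.0 and 42.6 FPKM. No comparison called it, and its stage difference was -0.12 (limma adjusted p = 0.137). Kif2a overlaps Dimt1 on the opposite strand, at 6.64 to 13.9 FPKM, and reads of the pair may not be separable.

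Among transport kinesins, kinesin-1 pairs heavy chains from Kif5a, Kif5b and Kif5c, which hold the motor, with light chains from the Klc genes, which bind cargo. The light chain Klc1 had the highest mean FPKM, a level per length, of all kinesin genes, at 162.9, 166.5 and 194.1 FPKM in E15 callosal, subcerebral and corticothalamic neurons. It was 186.9, 244.2 and 194.6 FPKM at E16, 220.8, 296.3 and 218.2 FPKM at E18, and 299.9, 385.8 and 305.5 FPKM at P1. The P1 values lay above all others of their subtype, and subcerebral neurons were highest from E16 on. Klc1 rose by 0.91 ± 0.12 (limma adjusted p = 0.00019), and Klc2 rose by 0.65 ± 0.12 (limma adjusted p = 0.00119), from 39.9, 37.1 and 37.8 FPKM at E15 to 52.6, 73.0 and 57.9 FPKM at P1. Klc4 fell instead. It was 15.9, 16.7 and 16.8 FPKM at E15, 14.9, 11.6 and 14.1 at E16, 14.5, 12.6 and 12.6 at E18, and 8.44, 7.88 and 6.35 at P1, in the same order of subtypes (-1.04 ± 0.11, limma adjusted p = 5.73e-05). All 3 stage calls were kept whichever subtype was left out. Klc3 had values of 2.47 to 4.94 FPKM and no call (-0.27, limma adjusted p = 0.0628). On the opposite strand Klc3 overlaps Ercc2, at 19.7 to 33.8 FPKM, and Klc1 overlaps Xrcc3, at 1.23 to 4.51 FPKM. Use of strand is not given, so reads of each pair may not be separable.

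The heavy chains moved much less. The summed FPKM of Kif5a, Kif5b and Kif5c was 264.8 to 305.5 in all 12 groups, while the light chain sum went from 223.6, 224.9 and 251.7 FPKM at E15 to 364.3, 470.0 and 372.7 FPKM at P1. The ratio of light to heavy chain FPKM was 0.833, 0.826 and 0.888 at E15 in callosal, subcerebral and corticothalamic neurons. It was 0.900, 1.16 and 0.933 at E16, 1.03, 1.36 and 1.01 at E18, and 1.23, 1.54 and 1.22 at P1. The ratio was thus higher at each later stage in every subtype, and highest in subcerebral neurons from E16 on; it was not tested. Kif5a, the heavy chain most specific to neurons, was 0.24 ± 0.07 higher at P1 (limma adjusted p = 0.0175), but 0.01 (adjusted p = 0.938) after quantile normalization. Kif5b, the ubiquitous heavy chain, was 22.6 to 32.3 FPKM and was not called in any comparison. Kif5c, at 111.9 to 148.0 FPKM, had a stage difference of 0.04 (limma adjusted p = 0.555), which turned to -0.21 (limma adjusted p = 0.0385) after quantile normalization.

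**Figure D4:**
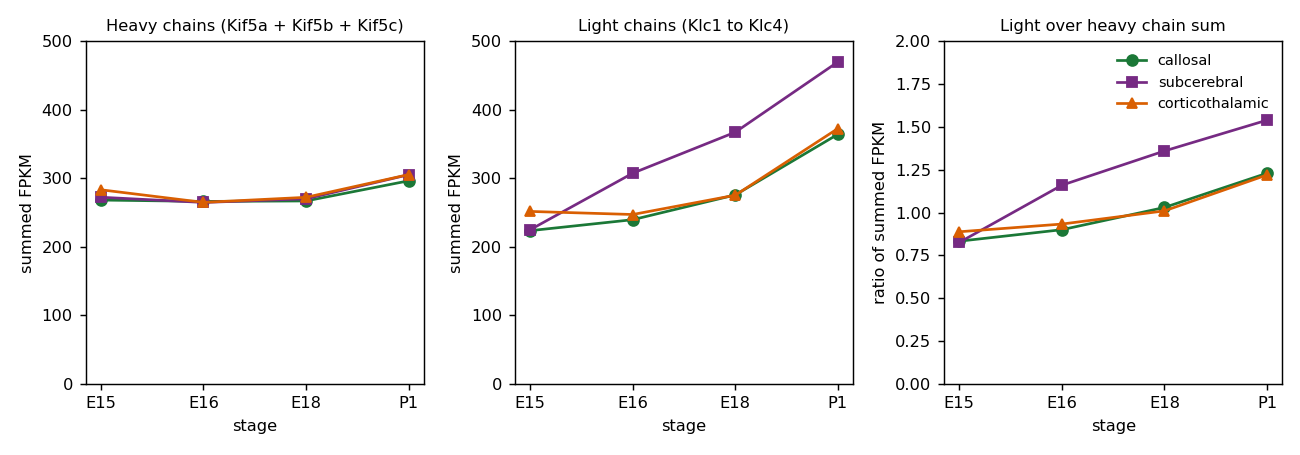
Summed FPKM of the kinesin-1 heavy chains and light chains at the 4 stages, and the ratio of light to heavy chains, 1 line per subtype. Heavy chain sums stay between 264.8 and 305.5 FPKM while the ratio goes from 0.826 to 1.54 in subcerebral neurons.

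Subtype differences within kinesin-1 were small. Subcerebral neurons had more Kif5a (callosal minus subcerebral -0.22 ± 0.06, limma adjusted p = 0.035) and Klc2 (-0.35 ± 0.10, limma adjusted p = 0.0331) than callosal neurons, and less Kif5c (0.19 ± 0.05, limma adjusted p = 0.0246). Kif5c was also lower in subcerebral than in corticothalamic neurons (-0.16 ± 0.05, limma adjusted p = 0.0461). At P1, Kif5a made up 50.6% of the heavy chain FPKM in subcerebral neurons, 41.4% in callosal and 41.5% in corticothalamic neurons. The 4 calls were lost without E16, E18 or P1. The callosal against subcerebral difference of Klc1 was -0.30 (limma adjusted p = 0.0537).

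Kinesin-2 is a trimer of Kif3a with Kif3b or Kif3c, the Kif3a and Kif3b form carrying the adaptor Kifap3, while Kif17 is a separate kinesin-2 known for carrying glutamate receptors into dendrites. Kif3b was 21.2, 21.2 and 23.0 FPKM at E15 in callosal, subcerebral and corticothalamic neurons, 23.7, 29.1 and 23.2 at E16, 29.1, 41.8 and 25.7 at E18, and 35.6, 46.5 and 30.7 at P1. It rose by 0.74 ± 0.13 (limma adjusted p = 0.0011), a call kept whichever subtype was left out. Kif3c fell slightly, by 0.25 on the log2 scale (-0.25 ± 0.06, limma adjusted p = 0.00797), from 71.9, 72.0 and 69.9 FPKM to 59.1, 66.1 and 55.1 FPKM, a call lost without the callosal (adjusted p = 0.0816) or corticothalamic values (adjusted p = 0.0988). The share of Kif3c in the Kif3 sum went from between 51.2% and 54.3% at E15 to between 38.3% and 43.3% at P1. Kif3a rose by 0.26 ± 0.09 (limma adjusted p = 0.0257), which became 0.11 (adjusted p = 0.202) after quantile normalization. Kif3a was 41.9 FPKM at E15 and 60.2 at P1 in subcerebral neurons, and 39.4 and 41.7 FPKM in callosal neurons. The adaptor Kifap3 rose alongside, from 83.3, 102.9 and 110.0 FPKM at E15 to 139.2, 189.0 and 162.0 FPKM at P1 (0.72 ± 0.08, limma adjusted p = 7.08e-05).

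Kif17 was low but rose by 0.82 ± 0.12 (limma adjusted p = 0.000313). Its values were 0.395, 0.565 and 0.580 FPKM at E15 in callosal, subcerebral and corticothalamic neurons, 0.491, 0.734 and 0.555 at E16, 0.788, 1.35 and 0.806 at E18, and 1.36, 2.46 and 1.34 at P1. It reached 1 FPKM only at E18 and P1, so it entered the test through the stages where it was high. Subcerebral neurons had more of it than callosal neurons at each stage (callosal minus subcerebral -0.33 ± 0.10, limma adjusted p = 0.0374), a call lost without E16 or E18. Kif17 overlaps Sh2d5 on the same strand, and the reads of these genes may not be separable.

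Kinesin-3 motors carry vesicles and organelles. Kif1a, the main carrier of synaptic vesicle precursors, was 117.1, 112.8 and 124.4 FPKM at E15 in callosal, subcerebral and corticothalamic neurons. It was 128.6, 130.2 and 122.1 FPKM at E16, 138.5, 160.0 and 129.9 FPKM at E18, and 174.0, 182.1 and 169.8 FPKM at P1. Every P1 value lay above every earlier one, with a rise of 0.57 ± 0.08 (limma adjusted p = 0.00036) that was kept under every alternative. Kif1b, which carries mitochondria and synaptic vesicle precursors, was 134.1, 133.2 and 149.0 FPKM at E15 and 128.2, 141.8 and 129.3 FPKM at E16. At E18 it was 125.3, 158.3 and 129.7 FPKM, and at P1 138.2, 177.3 and 142.1 FPKM. Subcerebral values were higher at each later stage, whereas the corticothalamic value at P1 lay below that at E15, and the stage difference over all subtypes was 0.13 (limma adjusted p = 0.255).

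The remaining kinesin-3 genes were low. Kif1c, which moves vesicles in many cell types, was 4.46 FPKM at E15 and 1.53 at P1 in subcerebral neurons, 4.86 and 2.63 in corticothalamic neurons, and 4.62 and 4.17 in callosal neurons (-0.64 ± 0.17 over subtypes, limma adjusted p = 0.00861). Kif13b, a carrier of phosphoinositide-rich vesicles, went from 6.61, 8.28 and 11.9 FPKM at E15 to 5.78, 3.57 and 5.14 FPKM at P1 (-0.75 ± 0.16, limma adjusted p = 0.0035). Both falls lost their call without the subcerebral or the corticothalamic values, with adjusted p-values from 0.0608 to 0.0867. Kif13a, which carries endosomal cargo, was 10.1 to 12.1 FPKM in corticothalamic neurons and 7.47 to 10 FPKM in the other subtypes. It was lower in callosal (-0.36 ± 0.09, limma adjusted p = 0.0138) and in subcerebral neurons (-0.39 ± 0.09, limma adjusted p = 0.0158) than in corticothalamic neurons. Kif16b, a motor of early endosomes, was 2.41 to 2.60 FPKM in callosal and 1.40 to 1.55 FPKM in corticothalamic neurons, with no overlap (0.51 ± 0.09, limma adjusted p = 0.00402). The Kif16b call was kept under every alternative but the filter of 5 FPKM, which left Kif16b untested. The Kif13a calls were lost without E16, E18 or P1.

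The subtype contrast between subcerebral and corticothalamic neurons called 4 further transport genes. Kif3b (0.37 ± 0.11, limma adjusted p = 0.0431) and Kif3c (0.21 ± 0.05, limma adjusted p = 0.025) were higher in subcerebral neurons, and Kif13b was lower (-0.46 ± 0.14, limma adjusted p = 0.0431). Kif16b was higher in subcerebral neurons as well (0.29 ± 0.09, limma adjusted p = 0.0466). In callosal neurons Kif3a lay below its subcerebral level (-0.28 ± 0.07, limma adjusted p = 0.0254). None of these 5 calls was kept when E16, E18 or P1 was left out.

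Kinesins of the cilium were low, and 3 of the 4 tested genes of cilia or other roles were called lower at P1, against 33.6% of all tested genes. Kif7, which works at the tip of the primary cilium in Hedgehog signalling, was 5.79, 8.11 and 5.21 FPKM in E15 callosal, subcerebral and corticothalamic neurons, and 4.46, 6.31 and 5.34 FPKM at E16. At E18 it was 4.50, 5.09 and 5.94 FPKM, and at P1 4.04, 3.28 and 4.19 FPKM (-0.59 ± 0.16, limma adjusted p = 0.0103). Kif24, which trims centriolar microtubules and restrains cilium assembly, was 3.17, 3.73 and 3.27 FPKM at E15, 2.81, 2.32 and 2.32 at E16, 1.91, 1.89 and 1.59 at E18, and 1.07, 1.16 and 1.09 at P1. It fell by similar amounts in all subtypes (-1.06 ± 0.09, limma adjusted p = 2.44e-05). That call was kept under every alternative but the filter of 5 FPKM, which left Kif24 untested. The Kif7 call was lost without the subcerebral values (adjusted p = 0.0734).

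Kif27, a relative of Kif7 known from motile cilia, was 1.88, 2.66 and 2.62 FPKM at E15 and 1.42, 2.34 and 2.85 FPKM at E16. It was 0.909, 1.90 and 2.56 FPKM at E18 and 0.627, 1.35 and 1.47 FPKM at P1. Callosal neurons were lowest at every stage, by -0.49 ± 0.09 against subcerebral (limma adjusted p = 0.00644) and -0.63 ± 0.09 against corticothalamic neurons (limma adjusted p = 0.00158), and the gene fell with age (-0.67 ± 0.11, limma adjusted p = 0.000591). The first of these calls was lost without E16 (adjusted p = 0.0611) or E18 (adjusted p = 0.0522). Kif9, of the motile cilium as well, was 0.351 to 0.665 FPKM in callosal, 1.13 to 2.05 in subcerebral and 0.817 to 1.37 in corticothalamic neurons. Callosal values lay below all others, with differences of -0.77 ± 0.12 (limma adjusted p = 0.00295) and -0.47 ± 0.12 (limma adjusted p = 0.0175). Kif9 entered the test only through the groups where it was high. The Kif9 difference from subcerebral neurons was kept under every alternative but the filter of 5 FPKM, which left Kif9 untested. That from corticothalamic neurons was lost without E16 or E18.

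Mitotic kinesins were present at traces and most were lower at P1. The summed level of the 12 genes was 7.21, 6.25 and 10.7 FPKM in E15 callosal, subcerebral and corticothalamic neurons, 7.20, 4.23 and 7.74 at E16, 4.16, 4.04 and 5.31 at E18, and 3.19, 3.34 and 4.74 at P1. Of the 11 mitotic genes above 0, 9 were lower at P1 than at E15 in all 3 subtypes; the exceptions were Kif4 in all subtypes and Kif2c in subcerebral neurons. Corticothalamic neurons had the highest of the 3 values at E15 for 10 of the 11, all but Kif20b. The share of all genes with either pattern was not determined, so these counts have no background beside them. Kif11, the motor that pushes spindle poles apart, was 0.504, 0.326 and 0.977 FPKM at E15 and 0.153, 0.130 and 0.226 FPKM at P1. Kif23, needed for cytokinesis, went from 0.776, 0.534 and 1.04 FPKM to 0.218, 0.163 and 0.309 FPKM.

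Of the tested mitotic genes, Kif20b, which acts in the last step of cytokinesis and has a described role in neurons, was 1.94, 1.71 and 1.81 FPKM at E15, 1.68, 1.31 and 1.40 at E16, 1.14, 0.957 and 0.892 at E18, and 0.435, 0.570 and 0.390 at P1. It was lower at P1 in every subtype (-0.95 ± 0.09, limma adjusted p = 4.15e-05), and it had reached 1 FPKM at E15, E16 and E18 only, so it entered the test through the stages where it was high. Kif22, a chromosome-binding kinesin, was 1.61, 1.32 and 1.84 FPKM at E15, 1.45, 0.868 and 1.39 at E16, 0.887, 0.885 and 0.857 at E18, and 0.750, 0.944 and 0.751 at P1 (-0.51 ± 0.12, limma adjusted p = 0.00497). Kif22 reached 1 FPKM at E15 and E16 only, and its call was lost without the callosal (adjusted p = 0.0533) or the corticothalamic values (adjusted p = 0.0765). Kif18a, which aligns chromosomes, was 0.666, 1.15 and 1.44 FPKM at E15, 0.886, 0.780 and 1.24 at E16, 0.433, 0.481 and 1.05 at E18, and 0.303, 0.225 and 0.597 at P1 (-0.59 ± 0.11, limma adjusted p = 0.00143). It was highest in corticothalamic neurons at each stage, with callosal minus corticothalamic at -0.40 ± 0.09 (limma adjusted p = 0.0134) and subcerebral minus corticothalamic at -0.34 ± 0.09 (limma adjusted p = 0.0311). Both subtype calls were lost without E16 or E18. Kif18a reached 1 FPKM in no callosal and no P1 group, so for stage and subtype alike it entered the test through the groups where it was high.

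Kif4, a chromokinesin, went the other way from the rest. It was 0.269, 0.166 and 0.771 FPKM at E15, 0.288, 0.250 and 0.840 at E16, 0.257, 0.488 and 1.11 at E18, and 0.362, 0.621 and 1.69 at P1. Corticothalamic values lay above all others, by 0.68 on the log2 scale over callosal (callosal minus corticothalamic -0.68 ± 0.10, limma adjusted p = 0.00167) and by 0.60 over subcerebral neurons (-0.60 ± 0.10, limma adjusted p = 0.00689), the latter lost without E16 (adjusted p = 0.0631). The rise with age was 0.39 ± 0.12 (limma adjusted p = 0.0155), lost without the subcerebral values (adjusted p = 0.109). Kif4 reached 1 FPKM only in E18 and P1 corticothalamic neurons, so it entered the test through the groups where it was high. It overlaps Pdzd11 on the opposite strand, at 12 to 17.8 FPKM, and use of strand is not given, so reads of the pair may not be separable.

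Genes below the filter were fitted without it as an alternative, over 24570 genes. Of 7 further mitotic kinesins with values above 0, 4 were lower at P1 and none was higher, where 22.2% of all genes in that fit were lower and 24.3% higher: Kif23 (-0.53, limma adjusted p = 0.00449), Kif18b (-0.31, limma adjusted p = 0.0129), Kif11 (-0.43, limma adjusted p = 0.0144) and Kif20a (-0.27, limma adjusted p = 0.0155). Kif20a overlaps Cdc23 on the opposite strand. Of 31 other mitotic genes in the table, 16 were tested, and 9 were lower and 1 higher at P1 (62.5% called). Of all tested genes 67.4% were called, 33.6% lower and 33.8% higher. Ccnb2, a mitotic cyclin, went from 2.89, 2.88 and 3.87 FPKM at E15 to 0.239, 0.197 and 0.434 FPKM at P1 (-1.70 ± 0.08, limma adjusted p = 4.08e-06). The proliferation marker Mki67 was 0.926, 0.446 and 2.02 FPKM at E15 and 0.163, 0.0426 and 0.106 FPKM at P1. The summed level of 17 progenitor genes went from 173.2, 127.9 and 135.6 FPKM at E15 to 99.4, 81.6 and 91.0 FPKM at P1. Of these genes 10 were called lower and 2 higher at P1, where 33.6% of all tested genes were lower and 33.8% higher. Ccnb2 reached 1 FPKM in no P1 group, and Top2a, Pax6, Sox2 and Eomes did so at E15 and E16 only. The filter thus shaped the direction of the counts of other mitotic genes and of progenitor genes. The part of dividing cells among the sorted neurons in the mitotic kinesin levels was not tested.

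**Figure D5:**
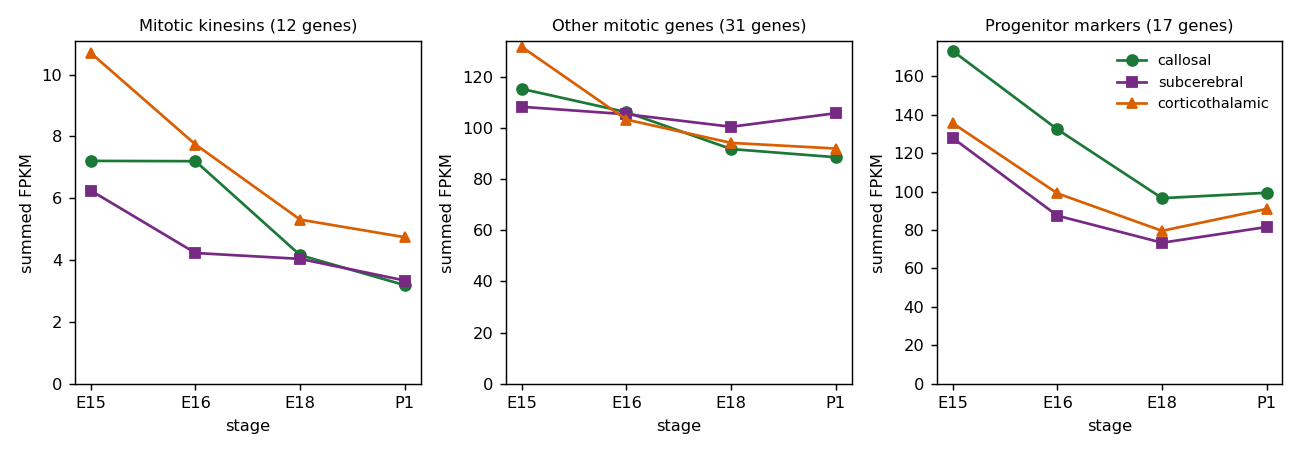
Summed FPKM at the 4 stages of the 12 mitotic kinesins, of 31 other mitotic genes and of 17 progenitor markers, 1 line per subtype. Mitotic kinesin sums go from between 6.25 and 10.7 FPKM at E15 to between 3.19 and 4.74 FPKM at P1. Progenitor sums are lower at P1 than at E15 as well. From E15 to P1, the sum of the other mitotic genes goes from 115.2 to 88.5 FPKM in callosal neurons. It goes from 108.2 to 105.7 in subcerebral and from 131.6 to 91.9 in corticothalamic neurons. Ckap5 alone makes up 73.0 FPKM of the E15 and 75.6 FPKM of the P1 subcerebral sum.

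Promoters of mitotic genes are known for a cell cycle element near the start site, of the letters TTTGAA, and for CCAAT boxes, so 8 start sites of mitotic kinesins are shown. The windows come from RefSeq GRCm38.p6, with those of 1 chromosome left out. Of the 42 kinesin genes 34 were matched, as 38 windows from 250 bases before to 50 after a start. The mitotic kinesin Kif20a was among those without a window. Capitals mark TTTGAA or CCAAT on either strand, so that a match on the opposite strand reads TTCAAA or ATTGG. In order, the stretches lie at chr19:37376322-37376406 (plus strand), chr9:122951021-122951105 (plus strand), chr11:102925100-102925184 (minus strand), chr19:34922298-34922382 (plus strand), chr7:127042396-127042480 (minus strand), chr9:61946775-61946859 (minus strand), chrX:100626005-100626089 (plus strand) and chr2:109280678-109280762 (plus strand).
Kif11: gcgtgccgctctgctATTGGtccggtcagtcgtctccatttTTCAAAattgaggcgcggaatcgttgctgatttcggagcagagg
Kif15: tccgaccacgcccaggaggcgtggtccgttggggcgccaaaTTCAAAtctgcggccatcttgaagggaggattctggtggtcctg
Kif18b: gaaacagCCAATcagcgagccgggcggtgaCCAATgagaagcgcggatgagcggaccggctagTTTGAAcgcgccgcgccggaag
Kif20b: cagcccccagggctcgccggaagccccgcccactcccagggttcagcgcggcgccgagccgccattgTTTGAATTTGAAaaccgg
Kif22: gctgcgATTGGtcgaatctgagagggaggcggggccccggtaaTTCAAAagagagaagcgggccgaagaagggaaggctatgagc
Kif23: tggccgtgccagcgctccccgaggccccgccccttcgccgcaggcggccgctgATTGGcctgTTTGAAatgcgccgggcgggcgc
Kif4: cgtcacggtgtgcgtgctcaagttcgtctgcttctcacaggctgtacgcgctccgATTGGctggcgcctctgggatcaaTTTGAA
Kif18a: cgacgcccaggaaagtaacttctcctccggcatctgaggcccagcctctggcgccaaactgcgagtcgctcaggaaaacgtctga
Of these 8 stretches, the Kif18a stretch alone held neither motif, and 7 held TTTGAA. The windows of Kif14, Kif2b and Kif2c, with no TTTGAA over the same span, are not shown, so the count of 7 reflects that choice. In the full windows TTTGAA occurred in either orientation in 9 of 11 mitotic kinesin genes, against 17.9% of the 32851 windows used. Among the other kinesins TTTGAA occurred in 1 of 13 transport genes (Kif1a), 1 of 4 regulators (Kif26b) and 1 of 6 cilia genes (Kif27). From 30 bases before to 25 bases after the start it occurred in 7 of 11 mitotic kinesin windows, 1 of 27 other kinesin windows and 2.72% of all windows. That span has no basis outside these genes and ends on the last base of the Kif4 match. These shares are therefore a description and not a test. CCAAT occurred in 7 of 11 mitotic, 5 of 13 transport, 1 of 4 regulator and 3 of 6 cilia genes, and in 37.4% of all windows. Kif4, whose level rose, and Kif20b and Kif22, whose levels fell, all held TTTGAA. The kinesin windows had a median GC content of 63.3%, against 52.7% over all windows.

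Cargo adaptors and other kinesin partners changed with age about as often as genes at large. Of 42 tested partners 17 were higher and 11 lower at P1 (66.7% called). Of all tested genes 67.4% were called, 33.8% higher and 33.6% lower. The vesicle scaffold Lin7b rose most, from 2.78, 2.29 and 2.24 FPKM in E15 callosal, subcerebral and corticothalamic neurons to 9.50, 26.6 and 16.2 FPKM at P1 (2.32 ± 0.26, limma adjusted p = 0.000106). Clstn3, one of the calsyntenins, which as a family bind kinesin light chains, rose from 25.4, 28.7 and 29.6 FPKM to 48.3, 62.1 and 71.9 FPKM (1.08 ± 0.08, limma adjusted p = 1.13e-05). In the comparison of callosal with corticothalamic neurons, 8 of 42 tested partners were higher and 11 lower in callosal neurons (45.2% called, against 31.3% of all tested genes). Ppfia4, a liprin, was 1.79 to 8.10 FPKM in callosal and 17.5 to 20.3 FPKM in corticothalamic neurons (-1.87 ± 0.25, limma adjusted p = 0.00105). Sybu, which encodes syntabulin, a linker of Kif5 motors to vesicles and mitochondria, was 36.6, 110.1, 178.0 and 200.5 FPKM from E15 to P1 in callosal neurons and 306.6, 295.2, 283.0 and 234.5 FPKM in corticothalamic neurons (-1.34 ± 0.41, limma adjusted p = 0.0391). Callosal against subcerebral neurons called 6 of the 42 higher and 7 lower (31%, against 29.3% of all tested genes), among them Trak1, an adaptor of mitochondria, higher in callosal neurons (0.86 ± 0.18, limma adjusted p = 0.00908). Trak1 was 94.8, 71.9, 54.6 and 59.0 FPKM in callosal and 65.5, 29.7, 29.4 and 33.3 FPKM in subcerebral neurons from E15 to P1.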

How the data were processed

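The table of 32310 entries by 12 columns holds 1 pooled value per stage and subtype. The authors' deposited values were read as FPKM, a unit inferred from the naming of Cufflinks, from the absence of negative values and from unequal column sums. The submitters' processing notes name TopHat2, Cufflinks and the build mm9. Versions, annotation, strand use, filters and how both libraries of a group entered its value were not stated in any source used here. FPKM keeps no read counts, so depth is unknown and no counting interval can be given.

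Values were tested as log2(FPKM + 1), a pseudocount of 1, in limma 3.58.1 under R 4.3.3, with statmod 1.5.0 for robust moderation and with a variance trend, using additive terms for stage and subtype and 6 residual degrees of freedom. A second fit adds a linear change of subtype with stage order, with 4 residual degrees of freedom. Genes reaching 1 FPKM in at least 2 columns were tested, and p-values were adjusted over all 13946. The procedure was tested on simulated data. The members and the gene lists were chosen with earlier results of these data known.

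Values in every column are given for Kif26a, for kinesins called with an absolute log2 difference of at least 1, and for the 3 most abundant of each role. Of each partner list up to 4 genes with the largest called difference could be named. Other members and partners given with values (including Mki67 and Kifap3), and the promoter motifs, were chosen after their values were seen. Alternatives were a pseudocount of 0.1, no filter or a filter of 5 FPKM, median-ratio scaling, quantile normalization, plain eBayes, other model terms, leaving out each stage or subtype, and leaving out the E15 or E16 callosal value, the last chosen after seeing the data. Promoter sequences were matched by gene symbol in a RefSeq table of GRCm38.p6, and overlaps were read from GENCODE M21; neither is the build of the table.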

Additional observations from a re-analysis of the deposited data

Results flagged for a closer look

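For 7 of the 30 tested kinesins (23.3%, against 26.5% of all tested genes) the change over the 4 stages differed between subtypes, by the limma test of linear stage slopes; slopes are in log2(FPKM + 1) per stage step relative to callosal neurons. In Kif13b they were -0.27 ± 0.06 in subcerebral and -0.30 ± 0.06 in corticothalamic neurons (limma adjusted p = 0.024). Callosal Kif13b values were 6.61, 7.86, 8.35 and 5.78 FPKM from E15 to P1, and corticothalamic values were 11.9, 9.47, 8.24 and 5.14 FPKM. For Kif3a the slopes were 0.15 ± 0.03 and 0.03 (limma adjusted p = 0.0311), for Kif1b 0.13 ± 0.04 and -0.03 (limma adjusted p = 0.0436) and for Kif3b 0.13 ± 0.06 and -0.11 (limma adjusted p = 0.0456). These 3 transport genes, 2 subunits of kinesin-2 and a kinesin-3, gained more with age in subcerebral than in callosal neurons. Kif7 had slopes of -0.23 ± 0.07 and 0.06 (limma adjusted p = 0.0429), Kif1c -0.31 ± 0.07 and -0.18 (limma adjusted p = 0.0476) and Kif21a -0.13 ± 0.03 and -0.04 (limma adjusted p = 0.0483), so these fell more in subcerebral neurons. The test took both slopes of a gene together, so neither slope was tested alone. Of the 7 calls, all but that of Kif13b were lost without a filter and with quantile normalization. With 1 stage left out at a time, 0 to 1 of the 30 kinesins passed, and 6 to 12 had an unadjusted p under 0.05.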

How the results depend on the processing

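No paired analysis was possible because the columns carry no replicate number and hold 1 value per group. Of 58 called single-gene results, 18 kept their call under every alternative that tested the gene, and 40 lost it under at least 1. The 18 include Kif26a and Kif26b in both callosal comparisons. They also include genes that some alternatives did not test, such as Kif24 under the filter of 5 FPKM. Counts of called kinesins moved by over 1.5 times as follows. Callosal against subcerebral gave 11, and 4 with the 8 values of these subtypes, 3 without a stage term, 5 without the E16 callosal value and 3 to 16 with a stage left out. Callosal against corticothalamic gave 9, and 4 with a filter of 5 FPKM (19 kinesins tested), 4 without a stage term and 4 to 9 with a stage left out. Subcerebral against corticothalamic gave 9, and 4 with 8 values, 0 without a stage term (3 at an unadjusted limma p under 0.05), 5 without the E16 callosal value, and 0 to 16 with a stage left out: 16 without E15, and 0 without E16, E18 or P1, where 6 to 7 had an unadjusted p under 0.05. P1 against E15 gave 22, and 14 with a filter of 5 FPKM, where 19 kinesins were tested. Slopes differing between subtypes gave 7, and 2 without a filter, 2 with quantile normalization, 2 without the E15 callosal value, 1 without the E16 callosal value, and 0 to 1 with a stage left out. The stage difference of Kif5c reversed to -0.21 (limma adjusted p = 0.0385) with quantile normalization. Fewer values or fewer tested genes enter the fits that leave some out; for the other settings the cause was not tested.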

Other observations

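The genes of the retrograde motor were called about as often as genes at large, but mostly as higher at P1. Of 30 tested genes of cytoplasmic dynein and dynactin, 18 were higher and 3 lower at P1 than at E15 (70.0% called, median 0.37). Of all tested genes 67.4% were called, 33.8% higher and 33.6% lower. The dynactin subunit Dctn3 went from 47.9, 41.9 and 36.7 FPKM in callosal, subcerebral and corticothalamic neurons at E15 to 96.2, 108.7 and 87.0 FPKM at P1 (1.19 ± 0.08, limma adjusted p = 8.53e-06), and the light chain Dynlt3 from 4.07, 4.99 and 7.36 FPKM to 12.7, 23.2 and 18.1 FPKM. Hook3, an adaptor that activates dynein, fell from 10.7, 10.1 and 10.9 FPKM to 4.80, 4.03 and 6.25 FPKM. Dync1i1, the neuronal dynein intermediate chain, was lower in callosal than in corticothalamic neurons (-1.15 ± 0.13, limma adjusted p = 0.000443), at 70.6 to 147.3 FPKM and 178.6 to 342.7 FPKM.

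Of 6 kinesin genes outside the name rule, 5 were tested, and 2 were higher and 2 lower at P1, where 33.8% of all tested genes were higher and 33.6% lower. Kifc2, a minus-end kinesin abundant in neurons, was 13.4, 13.7 and 14.1 FPKM at E15, 15.3, 15.6 and 18.2 at E16, 23.7, 25.2 and 30.4 at E18, and 43.8, 46.4 and 51.3 at P1. Its rise of 1.70 ± 0.06 (limma adjusted p = 1.71e-06) was similar in every subtype. Kifc3, another minus-end kinesin, rose by 1.10 ± 0.17 (limma adjusted p = 0.000629), from 11.2, 11.8 and 13 FPKM to 30.3, 33.5 and 18.8 FPKM, least in corticothalamic neurons. Cenpe, the kinetochore kinesin, stayed at or below 0.634 FPKM and was not tested. An entry spelled KIF1B, apart from Kif1b, had 0.0277 to 0.214 FPKM.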
